A study of Mus musculus with 6 samples.

Results

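The 10 genes of the canonical Wnt pathway that were followed in mouse liver tumor cell lines were *Ctnnb1*, *Apc*, *Axin1*, *Axin2*, *Lgr5*, *Nkd1*, *Rnf43*, *Znrf3*, *Tcf7* and *Lef1*. They were chosen by name, as the rows of the deposited expression table with these symbols, and all 10 were found among 20856 genes with values. RNA had been sequenced from 6 cell lines, 3 with *Myc* and a guide against *Trp53* (sg*Trp53* lines) and 3 with *Myc* and a guide against *Kmt2c* (sg*Kmt2c* lines; *Kmt2c* encodes the histone methyltransferase MLL3). Each line came from a liver tumor of a C57BL/6 mouse injected through the tail vein with a *Myc* transposon and a px330 plasmid carrying Cas9 and the guide RNA. All 6 lines thus carried the *Myc* transposon, none kept both *Trp53* and *Kmt2c* untargeted, and no normal liver and no line with a β-catenin mutation known from the labels was among them. Tumor cells had been passaged on collagen until no fibroblasts were visible, and received no further treatment. The question was whether the RNA of any line, or of either genotype, showed raised β-catenin targets.

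Without a Wnt signal, β-catenin (*Ctnnb1*) is held by a destruction complex built on the scaffolds APC and AXIN1 and is degraded. With a signal it reaches the nucleus and acts with the DNA-binding TCF/LEF factors, and the genes switched on include feedback inhibitors such as *Axin2*, *Nkd1*, *Rnf43*, *Znrf3* and *Notum*. In the liver this signal is strongest around the central vein, where it maintains *Glul* and *Cyp2e1*, and activating *CTNNB1* mutations are frequent in human liver cancer. β-catenin is controlled as a protein, so its RNA level does not report its activity, and the targets are the usual RNA readout.

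The RPKM values (reads per kilobase of transcript, scaled to the library's reads on genes) rested on 5312182 to 6878625 reads on genes in the sg*Trp53* libraries and 3680068 to 4704539 in the sg*Kmt2c* libraries. Values are given below in the order of replicates 1, 2 and 3, sg*Trp53* before sg*Kmt2c*. *Trp53* itself was at 17.2, 17.6 and 19.4 RPKM with sg*Trp53* and at 92.2, 123.7 and 120.9 RPKM with sg*Kmt2c*. *Kmt2c* was at 24.2, 18.4 and 19.2 RPKM against 19.7, 24.97 and 9.51 RPKM, so its RNA overlapped between the genotypes. Small CRISPR indels need not lower RNA, and the cause was not tested here. sg*Kmt2c* replicate 1 stood apart, with a mean Pearson r over genes of 0.805 with the other libraries, where the other 5 had 0.876 to 0.904. *Alb* (albumin) ranged from 0.644 to 4.36 RPKM, and endothelial markers summed to at most 0.284 RPKM. Immune markers summed to 36.6, 19.7 and 49.3 RPKM against 5.35, 5.51 and 14.1 RPKM, mostly the myeloid gene *Lyz2* with sg*Trp53* (29.0, 17.1 and 45.3 against 0, 0.214 and 12.4 RPKM), and with *Cd3e* (T cells) at 0 throughout.

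Sequences upstream of annotated start sites of *Axin2*, *Rnf43* and *Lef1* are shown because TCF/LEF factors read short DNA words and the genes differed widely: *Axin2* was nearly silent, *Rnf43* was the most variable, and *Lef1* held the only match. Promoter windows (RefSeq, GRCm38.p6, 250 bases before to 50 after a start) were found for 6 of the 10 genes and made up 12 windows; *Apc*, *Axin1*, *Lgr5* and *Znrf3* had none. The search took CTTTGAA and CTTTGAT, and besides these words also CTTTGTA as well as the fourth form CTTTGTT, on both strands of each window. Capitals mark the match. The *Axin2* and *Rnf43* stretches end directly before their starts, and the *Lef1* stretch surrounds its match, which begins at position -147 from the start.
*Axin2*, chr11:108920249-108920348, plus strand: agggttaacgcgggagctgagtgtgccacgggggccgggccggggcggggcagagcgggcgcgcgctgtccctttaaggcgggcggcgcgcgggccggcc
*Rnf43*, first start, chr11:87662987-87663086, plus strand: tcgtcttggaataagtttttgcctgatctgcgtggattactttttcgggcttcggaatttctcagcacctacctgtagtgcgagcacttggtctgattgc
*Rnf43*, second start, chr11:87699797-87699896, plus strand: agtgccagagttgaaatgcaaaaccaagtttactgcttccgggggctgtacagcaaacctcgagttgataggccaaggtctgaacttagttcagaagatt
*Lef1*, most distal start, chr3:131156107-131156193, plus strand: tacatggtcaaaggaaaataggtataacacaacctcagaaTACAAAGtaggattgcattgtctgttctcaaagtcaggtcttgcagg
Of the 12 windows, 1 held such a word, against 16.9% of all 32851 windows. A match is a description of letters, not a site of binding, and TCF/LEF sites that lie farther away are outside these windows.

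**Figure D1:**
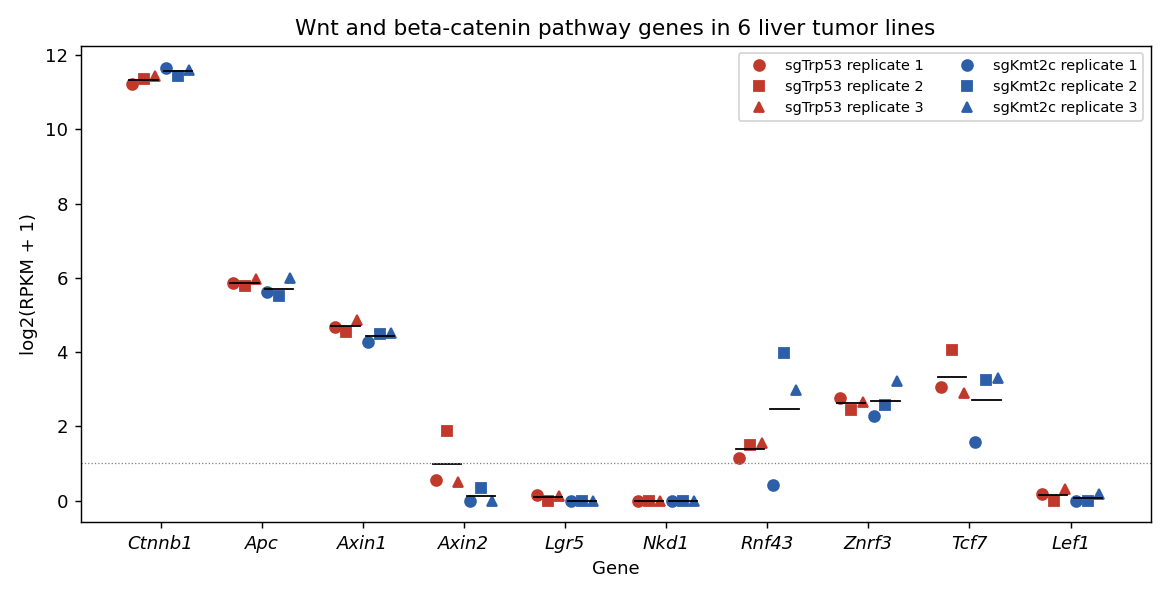
Level of the 10 pathway genes, log2(RPKM + 1), in each of the 6 libraries (red sgTrp53, blue sgKmt2c; the marker shape gives the replicate, the black line the mean of 3, the dotted line 1 RPKM). *Ctnnb1*, *Apc* and *Axin1* lie close together in all 6 lines, *Rnf43* and *Tcf7* spread widely, and *Lgr5*, *Nkd1* and *Lef1* lie at or near 0.

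The effector *Ctnnb1* was abundant in every line and varied little. It was at 2410.4, 2613 and 2752 RPKM with sg*Trp53* and at 3249, 2788 and 3080.4 RPKM with sg*Kmt2c*. The sg*Kmt2c* values all lay above the sg*Trp53* values, by a log2 fold change (sg*Kmt2c* minus sg*Trp53*, here and throughout) of 0.23 with a standard error of 0.20 and a 95% interval of -0.25 to 0.70. This did not pass the test (limma, adjusted p = 0.743), and under quantile normalization the sign turned (-0.09). The genes lie at chr9:120929216-120960507 (GRCm38) for *Ctnnb1*, chr18:34220924-34322189 for *Apc* and chr17:26138688-26195811 for *Axin1*.

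The destruction complex scaffolds were also expressed in every line. *Apc* was at 57.4, 54.4 and 61.4 RPKM with sg*Trp53* and at 48.0, 45.1 and 62.9 RPKM with sg*Kmt2c*, and the genotypes overlapped. *Axin1* was at 24.4, 22.4 and 28.2 RPKM with sg*Trp53* and at 18.4, 21.4 and 21.9 RPKM with sg*Kmt2c*, where the lines did not overlap. The log2 fold change was -0.16 for *Apc* (95% interval -0.63 to 0.30, adjusted p = 0.804) and -0.27 for *Axin1* (-0.72 to 0.19, adjusted p = 0.716, both limma). No line had lost the RNA of either scaffold, which says nothing about mutations in them. The SD of log2(RPKM + 1) over the 6 libraries was 0.16 for *Ctnnb1*, 0.19 for *Apc* and 0.20 for *Axin1*, at percentiles 4.08, 9.004 and 10.0 of the 11617 genes tested, whose median SD was 0.40.

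The order of levels between genes depended on transcript length. The listed length of *Ctnnb1* was 364 bases where its longest annotated coding transcript has 3623, so its median of 2770 RPKM became 279 RPKM with the longer length. *Apc* (3588 listed, 12346 longest) moved from a median of 55.9 to 16.3 RPKM and thereby passed below *Axin1*, at 22.2 RPKM under both lengths. *Axin2* (1051 listed, 4260 longest) moved from 0.336 to 0.0831 RPKM. On either scale *Ctnnb1* was highest, followed by *Apc* and *Axin1*, then *Tcf7*, *Znrf3* and *Rnf43*, with the remaining 4 genes below, except that *Apc* and *Axin1* exchanged places. The ranges of *Tcf7*, *Znrf3* and *Rnf43* over the lines overlapped, so their order did not hold beyond their spread. With the longer length, *Ctnnb1* lay at percentiles 98.9 to 99.1 of the genes within a library. The choice of length cancels in RPKM ratios of 1 gene between lines. It does not cancel in log2(RPKM + 1) or in counts of genes at 1 RPKM. *Axin2* in sg*Trp53* replicate 2, for example, moved from 2.68 to 0.663 RPKM.

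**Figure D2:**
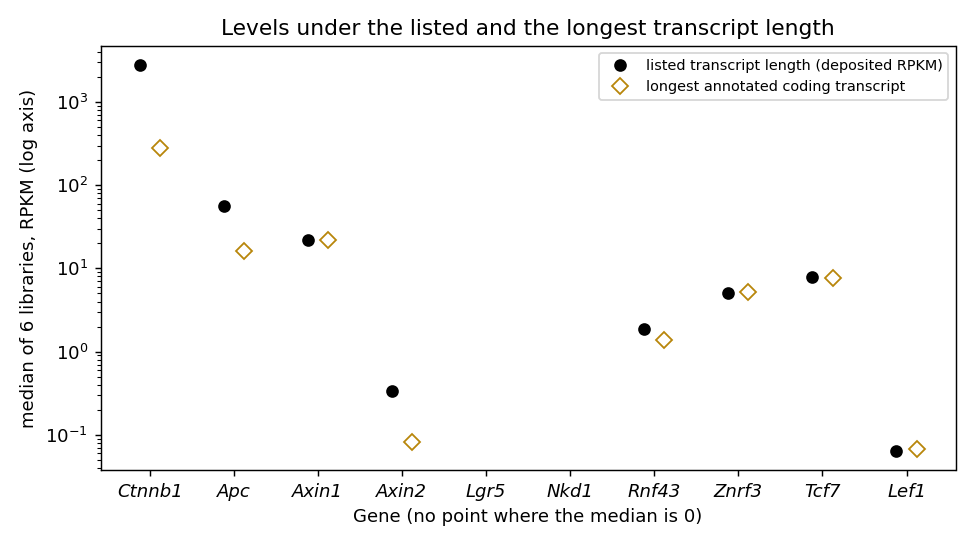
Median RPKM of the 6 libraries on a log axis for each pathway gene, with the transcript length listed in the deposited table (filled circles) and with the longest annotated coding transcript (open diamonds). *Ctnnb1* drops from 2770 to 279 RPKM and *Axin2* from 0.336 to 0.0831 RPKM, and *Lgr5* and *Nkd1* have a median of 0.

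Of the 7 targets, *Axin2*, a near-universal β-catenin target that feeds back on the destruction complex, was almost silent in 5 lines. It lies at chr11:108920349-108950783 and had 3, 15 and 3 reads (0.468, 2.68 and 0.414 RPKM) with sg*Trp53* and 0, 1 and 0 reads (0, 0.258 and 0 RPKM) with sg*Kmt2c*. The sg*Trp53* values all lay above the sg*Kmt2c* values, with the highest in sg*Trp53* replicate 2. The gene did not reach the filter for limma, and an exact two-sided permutation test gave p = 0.1, the smallest that 3 against 3 lines can give. Per read sequenced, *Axin2* was 14.5-fold higher in the pooled sg*Trp53* libraries (exact 95% interval 2.34 to 601 for counting error only), and 5.85-fold higher without sg*Trp53* replicate 2 (interval 0.710 to 269). Whether fewer cells expressed *Axin2* or each cell held less of it cannot be told apart in bulk RNA.

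*Lgr5*, the R-spondin receptor that marks Wnt-responsive stem cells and pericentral hepatocytes, had 3, 0 and 3 reads with sg*Trp53* (0.104, 0 and 0.0924 RPKM) and none with sg*Kmt2c* (chr10:115450311-115587780). *Nkd1*, an inhibitor that acts on Dishevelled, had 0 reads in all 6 lines, which allows up to 0.101 to 0.189 RPKM per library (3 reads; chr8:88521344-88594887). *Lef1*, a DNA-binding partner of β-catenin that is itself a target, had 3, 0 and 6 reads against 0, 0 and 2 reads, at most 0.238 RPKM (chr3:131110471-131224356). These 3 genes were thus at or under 6 reads everywhere, and no fold change was computed for them.

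*Rnf43*, a membrane ubiquitin ligase that removes Frizzled receptors, varied most among the members. It was at 1.21, 1.81 and 1.96 RPKM with sg*Trp53* and at 0.341, 14.8 and 6.91 RPKM with sg*Kmt2c* (23, 30 and 42 reads against 5, 170 and 92; chr11:87662722-87735539). sg*Kmt2c* replicate 1 was below and sg*Kmt2c* replicates 2 and 3 above every sg*Trp53* line, so the spread lay within a genotype. The paper traces its sg*Kmt2c* lines to different mice. Because the labels number sg*Kmt2c* replicates 2 and 3 alike, they were also counted as 1 sample, which gave a log2 fold change of 0.55. The log2 fold change of 1.06 (standard error 0.86, 95% interval -0.99 to 3.12) did not pass (limma, adjusted p = 0.731). It was 2.08 without sg*Kmt2c* replicate 1 (adjusted p = 0.221) and 0.30 without sg*Kmt2c* replicate 2 (adjusted p = 0.885). Its SD was at percentile 93.8 of the genes tested.

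*Znrf3*, the paralog of *Rnf43* with the same role, was even across lines. It was at 5.82, 4.41 and 5.31 RPKM with sg*Trp53* and at 3.83, 4.94 and 8.30 RPKM with sg*Kmt2c* (chr11:5276324-5444847). The highest and the lowest line were both sg*Kmt2c* lines, and the log2 fold change was 0.07 (95% interval -0.68 to 0.81, limma, adjusted p = 0.951), with a sign that depended on single lines. The paralogs therefore had their highest values in different lines, *Rnf43* in sg*Kmt2c* replicate 2 and *Znrf3* in sg*Kmt2c* replicate 3.

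*Tcf7*, a TCF factor and target, was the only one of the 3 tested target members to peak in a sg*Trp53* line. It was at 7.30, 15.7 and 6.52 RPKM with sg*Trp53* and at 1.98, 8.56 and 8.80 RPKM with sg*Kmt2c* (chr11:52252371-52283014). sg*Trp53* replicate 2 was highest and sg*Kmt2c* replicate 1 lowest, with the other 4 lines between 6.52 and 8.80 RPKM. The log2 fold change was -0.63 (standard error 0.56, 95% interval -1.97 to 0.70, limma, adjusted p = 0.747), and it fell to -0.07 without sg*Kmt2c* replicate 1.

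**Figure D3:**
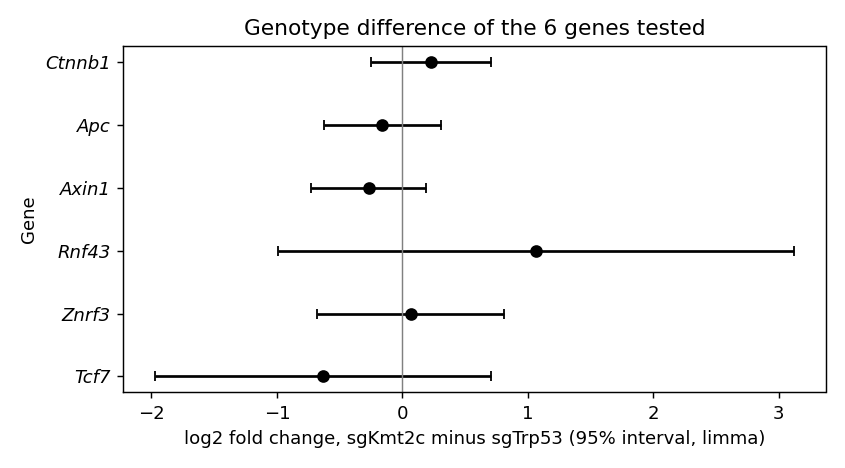
Log2 fold change, sgKmt2c minus sgTrp53, of the 6 pathway genes that passed the filter on low values (points, limma estimates; bars, 95% intervals). All 6 intervals include 0, from -0.25 to 0.70 for *Ctnnb1* up to -0.99 to 3.12 for *Rnf43*.

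Between the genotypes, 6 of the 10 members passed the filter on low values and 0 of these 6 changed (limma, adjusted p under 0.05), where 0.129% of all genes tested did. None of the 6 had an unadjusted p under 0.05 either, with limma or with limma voom on the recovered reads, against 8.58% of all genes. The genotypes did not overlap in 2 of the 6 (*Ctnnb1* and *Axin1*), against 16.2% of all genes. Without sg*Kmt2c* replicate 1, the library that stood apart, the log2 fold change was 0.18 for *Ctnnb1*, -0.11 for *Apc*, -0.19 for *Axin1*, 0.27 for *Znrf3*, -0.07 for *Tcf7* and 2.08 for *Rnf43*. Again 0 of the 6 changed, and *Rnf43* alone had an unadjusted p under 0.05 (0.00150, limma across all genes). In that fit 8 of all 11617 genes tested changed, and 1075 had an unadjusted p under 0.05. The line left out was the one with the lowest *Rnf43*. The intervals set what could be seen: for *Ctnnb1*, *Apc* and *Axin1* they reached at most a 1.65-fold difference in either direction, and for *Rnf43* 8.68-fold.

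Taken by line, the targets with more than 6 reads in some line did not all peak in the same line. Of the 7, the number at 1 RPKM or more was 3, 4 and 3 with sg*Trp53* and 2, 3 and 3 in the sg*Kmt2c* lines. *Znrf3* and *Tcf7* were above that level in all 6 lines, *Rnf43* in all but sg*Kmt2c* replicate 1, and *Axin2* in sg*Trp53* replicate 2 alone. sg*Trp53* replicate 2 was the highest line for *Axin2* and *Tcf7*, sg*Kmt2c* replicate 2 for *Rnf43* and sg*Kmt2c* replicate 3 for *Znrf3*. The highest values of *Lgr5* (3 reads each in sg*Trp53* replicates 1 and 3) and *Lef1* (6 reads in sg*Trp53* replicate 3) were too low to tell lines apart. sg*Kmt2c* replicate 1 was highest for 0 of the 7.

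Further target genes were read from lists of textbook targets, pericentral genes and *Notum*, which with the 7 members made 28 genes, 20 of which reached 1 RPKM in some line. sg*Kmt2c* replicate 2 was the highest line for 6 of these 20 (*Apcdd1*, *Ephb2*, *Ephb3*, *Tbx3*, *Rnf43* and *Notum*), and the other lines for 1 to 4. On the log2(RPKM + 1) scale it was also the only line in which any of them lay at least 2 units above its median of the 6 lines, namely *Ephb2*, *Rnf43* and *Notum*. On plain RPKM, these 3 again lay at least 4-fold above the median in that line, and so did *Bambi*, *Axin2* and *Notum* in sg*Trp53* replicate 2, *Nkd2* and *Bambi* in sg*Kmt2c* replicate 3, and *Slc1a2* in sg*Trp53* replicates 1 and 3. *Notum*, a secreted enzyme that inactivates Wnt proteins, was at 0, 3.91 and 0 RPKM with sg*Trp53* and at 0.192, 33.1 and 0.317 RPKM with sg*Kmt2c*. *Ephb3*, a receptor that positions cells in the intestinal crypt, was at 0.431, 2.43 and 1.56 RPKM against 0.203, 7.91 and 4.36 RPKM, and *Tbx3*, a repressor in liver tumors with active β-catenin, at 0.515, 2.79 and 3.92 RPKM against 1.07, 10.4 and 5.34 RPKM. *Ephb2*, which falls outside the rule for named genes and was chosen after its values were seen, was at 5.20 RPKM in that line and at most 0.536 RPKM elsewhere. In the same line *Axin2* had 1 read, *Lgr5*, *Nkd1* and *Lef1* had 0, and *Ccnd1* (cyclin D1) was at 75.9 RPKM, inside the range of the others. sg*Kmt2c* replicate 1 was lowest or tied for lowest for 12 of the 20. The ties, at 0 RPKM, were *Axin2* (with sg*Kmt2c* replicate 3) and *Slc1a2* (with sg*Kmt2c* replicate 2).

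**Figure D4:**
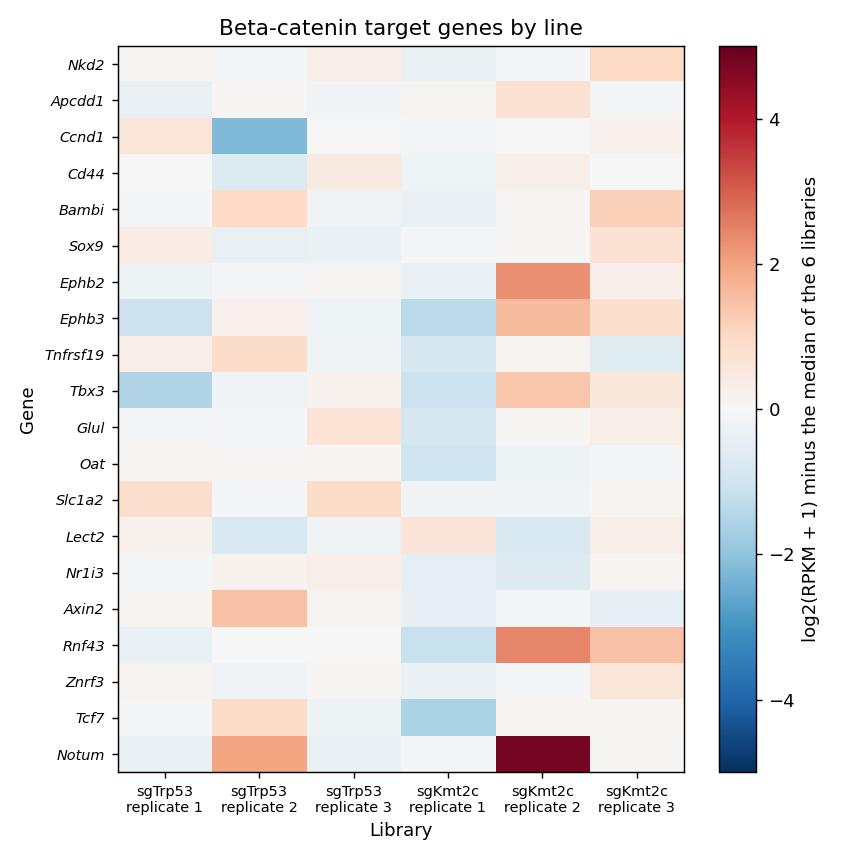
Level of 20 β-catenin target genes in each library, as log2(RPKM + 1) minus the median of the 6 libraries (red above, blue below). sgKmt2c replicate 2 is highest for *Notum*, *Rnf43*, *Ephb2*, *Ephb3*, *Tbx3* and *Apcdd1*, and sgTrp53 replicate 2 for *Axin2*, *Tcf7* and *Tnfrsf19*. sgKmt2c replicate 1 is lowest or tied for lowest for 12 genes.

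The lines with the extreme target values also differed in markers of cell type. Fibroblast and stellate markers, 6 of 7 of which reached 1 RPKM in some line, summed to 15.0, 985 and 166 RPKM with sg*Trp53* and to 0.282, 149 and 109.9 RPKM with sg*Kmt2c*. In sg*Trp53* replicate 2, the line with most *Axin2* and *Tcf7*, *Col3a1* (a collagen) was at 814 RPKM, most of the sum, while *Lum* was at 0. *Col1a2* and *Pdgfrb* were also higher there than in sg*Trp53* replicate 3. *Col1a1*, *Dcn* and *Thy1* were instead lower (23.2, 0.897 and 0.108 against 39.2, 8.16 and 2.51 RPKM). *Col3a1* also made up most of the sums in sg*Kmt2c* replicates 2 and 3 (114.5 and 92.9 RPKM). In sg*Kmt2c* replicate 1, the line lowest for *Rnf43* and *Tcf7*, *Col1a2*, *Pdgfrb*, *Dcn*, *Lum* and *Thy1* were all at 0. Hepatocyte markers, 6 of 6 reaching 1 RPKM in some line, summed to 29.3, 4.62 and 18.8 RPKM against 1209, 1.91 and 172 RPKM. Except in sg*Kmt2c* replicate 2, most of each sum was the single gene *Hnf4a*, whose listed length is only 431 bases. In sg*Kmt2c* replicate 3 *Hnf4a* was at 169.9 RPKM and each other hepatocyte marker at most at 1.60 RPKM. The sum was highest in sg*Kmt2c* replicate 1 (*Hnf4a* 1186 and *Ttr* 14.1 RPKM), although *Tat* was at 0 there. It was lowest in sg*Kmt2c* replicate 2, the line with most *Rnf43* and *Notum* (*Hnf4a* 0.629 RPKM). *Serpina1a* and *Tat* were at 0 in that line, but also in sg*Trp53* replicate 2, where *Alb* was lower (0.644 against 0.797 RPKM). Biliary and progenitor markers, 5 of 5, summed to 920, 90.9 and 1008 RPKM against 3468, 91.5 and 427 RPKM, with *Krt19* lowest in sg*Kmt2c* replicate 2 (7.06 RPKM). Epithelial markers, 4 of 4 reaching 1 RPKM, summed to 777, 24.7 and 499.6 RPKM against 3945, 230.4 and 505 RPKM, with the lowest sum in sg*Trp53* replicate 2 and the highest in sg*Kmt2c* replicate 1. The immune sum separated the genotypes in the same direction as *Axin2*, but only through *Lyz2*. *Cd68* overlapped between them (7.60, 2.60 and 4.01 against 5.35, 5.29 and 1.71 RPKM), and the general leukocyte marker *Ptprc* was at most at 0.0655 RPKM. The part of these differences in the target values was not tested.

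Pericentral liver genes, the zone where β-catenin is active in normal liver, were mostly near 0, and so were most periportal genes. *Glul* (glutamine synthetase), a target that is strongly raised in liver tumors with mutated β-catenin, was at 49.9, 50.2 and 82.9 RPKM with sg*Trp53* and at 28.7, 53.3 and 65.0 RPKM with sg*Kmt2c*, a spread within which the genotypes overlapped (log2 fold change -0.34, limma, adjusted p = 0.778). *Oat* (ornithine aminotransferase) was at 48.2, 46.7 and 46.9 RPKM against 22.4, 37.9 and 43.5 RPKM, with no overlap (-0.49, limma, adjusted p = 0.646). *Cyp1a2* was at 0 in all lines, *Cyp2e1* at most at 0.206 RPKM, *Slc13a3* at 0.186, *Slc1a2* at 1.04, *Lect2* at 1.69 and *Nr1i3* at 1.23 RPKM, and *Rhbg* was not in the table. Of 8 pericentral genes measured, 2 passed the filter and 0 changed (median -0.42), where 0.129% of all genes tested did. With so low a share, a count of 0 in a short list does not show that its genes were unchanged, here and below. Of 8 periportal genes, 2 passed and 0 changed: *Gls2*, and *Ass1* of the urea cycle, which was at 1.26, 2.66 and 3.68 RPKM against 2.00, 89.9 and 27.4 RPKM. The other periportal genes are named here outside the rule for named genes. *Sds* was at 0 in all lines, *Cyp2f2* at most at 0.201, *Pck1* at 0.264, *Cps1* at 1.38, *Arg1* at 4.78 and *Hal* at 4.95 RPKM.

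Upstream of the members, every line expressed Wnt ligands, whose summed level ranged from 46.95 to 102 RPKM. Of 15 ligands measured, 8 passed the filter and 0 changed, with a median log2 fold change of -0.41. *Wnt16* was at 27.5, 21.1 and 16.0 RPKM with sg*Trp53* and at 0, 24.4 and 56.3 RPKM with sg*Kmt2c*, and *Wnt10b* at 15.9, 22.1 and 17.5 RPKM against 0, 58.0 and 5.25 RPKM. Both were at 0 in sg*Kmt2c* replicate 1, where *Wnt7b* and *Wnt10a*, chosen after their values were seen, were at 31.7 and 12.5 RPKM. *Wnt5b*, a ligand best known outside the β-catenin branch, was at 1.13, 2.77 and 1.94 RPKM against 0.0976, 0.250 and 0.215 RPKM, with no overlap (log2 fold change -1.27, limma, adjusted p = 0.388). For Wnt secretion, *Wls*, which carries Wnts to the surface, was at 0.875, 31.7 and 1.79 RPKM against 3.88, 0 and 3.22 RPKM. *Porcn*, which attaches their lipid, was at 2.09, 0.898 and 1.93 RPKM against 21.5, 3.03 and 2.11 RPKM.

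Among receptors, 11 of 15 passed the filter and 0 changed, with a median of -0.30. The coreceptor *Lrp5* was at 22.8, 18.4 and 23.1 RPKM with sg*Trp53* and at 29.6, 53.7 and 27.9 RPKM with sg*Kmt2c*, without overlap (log2 fold change 0.71, limma, adjusted p = 0.580). *Ryk* ranged from 39.1 to 76.9 RPKM, and *Fzd2* (-1.59, adjusted p = 0.608) and *Ror2* (-1.34, adjusted p = 0.709, both limma) had their lowest values in sg*Kmt2c* replicate 1. *Lgr4*, the R-spondin receptor related to *Lgr5*, was at 11.5, 18.3 and 16.1 RPKM against 18.5, 69.2 and 55.6 RPKM (1.41, adjusted p = 0.528). It was high in the same sg*Kmt2c* lines as *Rnf43*, and the R-spondin *Rspo3* did not exceed 1.41 RPKM in any line.

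The other cytoplasmic genes varied little. Of 14 cytoplasmic genes 13 passed the filter and 0 changed (median log2 fold change -0.11), with a median SD over the 6 libraries of 0.28, against 0.40 for all genes. *Csnk1a1*, a kinase that primes β-catenin, ranged from 57.6 to 103.7 RPKM, *Tnks2* from 57.9 to 102.8 and *Tnks*, its paralog that destabilizes AXIN, from 15.8 to 21.5 RPKM, while *Dvl2* had a log2 fold change of -0.71 (limma, adjusted p = 0.608). Of 12 nuclear genes 11 passed and 0 changed (median -0.10). The coactivators *Pygo2* (160.6, 207 and 163 RPKM against 111, 119 and 127 RPKM) and *Bcl9* (11.4, 12.5 and 14.3 RPKM against 6.23, 4.98 and 8.78 RPKM) did not overlap between the genotypes, at log2 fold changes of -0.56 (adjusted p = 0.489) and -0.87 (adjusted p = 0.450, both limma). The corepressor *Tle3* ranged from 4.80 to 56.4 RPKM. Among 13 secreted and membrane inhibitors measured, only *Kremen1* passed the filter (-0.17, limma, adjusted p = 0.875). *Sfrp2*, a secreted Wnt antagonist, was at 0.246, 181 and 5.58 RPKM with sg*Trp53* and at most at 0.135 RPKM with sg*Kmt2c*, with the high value in the line that had most *Axin2*. Of 12 listed targets 6 passed and 0 changed (lowest adjusted p = 0.719, limma). All 6 had a log2 fold change above 0, with a median of 0.50, against 4878 of all 11617 genes tested, but the genotypes overlapped in each. Of the listed targets under the filter, *Tnfrsf19* had the higher mean with sg*Trp53* (1.38 against 0.362 RPKM), as had *Sp5* and *Ascl2*, both near 0. *Nkd2*, *Bambi* and *Ephb2* had it with sg*Kmt2c*. Of the 3 tested target members 2 had a log2 fold change above 0 and 1, *Tcf7*, below 0, and *Axin2*, under the filter, was higher with sg*Trp53*. *Cd44*, an adhesion receptor, ranged from 54.2 to 119 RPKM, and *Ccnd1* was at 116, 15.7 and 74.6 RPKM against 71.6, 75.9 and 87.8 RPKM, lowest in sg*Trp53* replicate 2.

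Over the 10 lists together, 105 of 112 genes were in the table and 57 passed the filter. Of these 57, 0 changed, against 0.129% of all genes tested. An unadjusted p under 0.05 was found for 5 (*Lrp5*, *Wnt5b*, *Bcl9*, *Pygo2* and *Lgr4*, limma), against 8.58% of all genes. The genotypes did not overlap in 9 of the 57, against 16.2% of all genes. Of the 57, 24 had a log2 fold change above 0 and 33 below, with a median of -0.11, and the median of all genes tested was -0.09. The genes whose pattern was most like that of *Axin2* over the 6 libraries, by Pearson r of log2(RPKM + 1), were *D8Ertd738e* (0.993), *Trim2* (0.989), *Sntb2* (0.985), *Cwc25* (0.984) and *Il11ra1* (0.982). All were highest in sg*Trp53* replicate 2, which follows from their selection by r. *Axin2* had 15 reads in that line and at most 3 in any other.

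**Figure D5:**
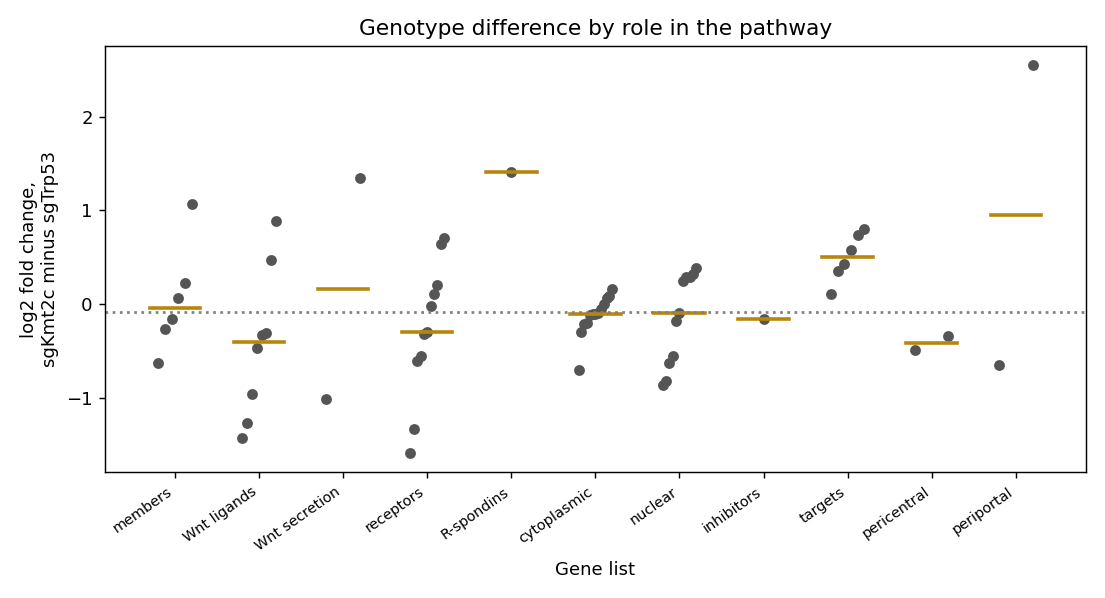
Log2 fold change, sgKmt2c minus sgTrp53, of each tested gene by role in the pathway (grey points, genes sorted within a list; gold bars, list medians; dotted line, the median of -0.09 over all genes tested). None of the genes plotted passed the test.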

How the data were processed

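RNA-seq of 6 cell lines was analysed, grouped by the genotype in the sample labels, 3 *Myc*; sg*Trp53* and 3 *Myc*; sg*Kmt2c*. The methods call the lines independent, and the paper's resource list traces the 3 lines of each genotype to different mice. Nothing in the sources ties same-numbered lines together. The labels number sg*Kmt2c* replicates 2 and 3 as 2A and 2T1, so an alternative counted them as 1 sample. The p-values measure only the spread between these lines. All libraries were run in both lanes of 1 flow cell. The authors used Trimmomatic for trimming, STAR for alignment to GRCm38 and HTSeq for counting, and the unit they deposited is RPKM (FPKM in their methods). RPKM divides by 1 transcript length per gene. Of 21065 rows, 209 hold no values, and 6 columns of other samples were not used. The authors' table of their own DESeq2 1.8.2 comparison (mean, log2 fold change, statistic, p-values) was not used.

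RPKM times length gave whole reads for 100% of 92301 values above 0 (within 0.05 read). Totals ran from 3680068 to 6878625 reads, and the *Axin2* ratio's intervals and the limits from 3 reads cover counting error only, while limma's intervals rest on the spread between lines. Within a genotype, any pair of libraries differed by more than counting noise (chi-square of at least 28.5 per gene). The library kit does not mark strand, so *Ctnnb1* (overlapping *Ulk4*), *Apc*, *Axin2*, *Rnf43* and *Tcf7*, whose positions overlap other rows, are uncertain to that extent.

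limma 3.58.1 in R 4.3.3 (eBayes with trend, Benjamini-Hochberg adjustment) was run on log2(RPKM + 1) over the 11617 genes with at least 1 RPKM in at least 3 of 6 libraries, with genotype as the only term, and was tested on simulated data. Fold changes on this scale understate low genes. Longest coding transcripts came from GENCODE vM1 (lengths only). Alternatives changed the pseudocount, filter, scaling, test on recovered reads (limma voom), replicate block, left-out lines and sg*Kmt2c* replicates 2 and 3 as 1 sample; the longest transcript and the plain RPKM fold over the median were added after the data were seen. Named are the 10 genes, of each list the 2 highest by mean and the 2 with the largest change among those tested, all pericentral genes, the 5 genes most like *Axin2*, and the targeted genes. The members and lists were chosen with earlier results of these data known.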

Additional observations from a re-analysis of the deposited data

How the results depend on the processing

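None of the 6 tested members, and none of the pathway list genes, changed under any alternative (members' adjusted p from 0.221 to 0.992 over 96 values, all from limma), and 92 of the 96 kept the sign of the log2 fold change. The exceptions were *Ctnnb1* under quantile normalization (-0.0868) and *Znrf3*, at -0.0372 with sg*Kmt2c* replicates 2 and 3 as 1 sample and from -0.20 to 0.27 with single lines left out, below 0 when sg*Trp53* replicate 2 (-0.03) or sg*Kmt2c* replicate 3 (-0.20) was dropped. The number of all genes called, 15, was 6 with a pseudocount of 0.1, 5 without the filter, 26 with at least 1 RPKM in all libraries of a genotype, 4 with limma voom, and 0 with sg*Kmt2c* replicates 2 and 3 as 1 sample (1053 at an unadjusted p under 0.05). Leaving out single lines gave 0 to 8 calls (563 to 1477 unadjusted), 8 without sg*Kmt2c* replicate 1 and 0 without any other. With the replicate number as a block 0 genes were called (1085 unadjusted); same-numbered lines deviated together with r of 0.192, 0.399 and 0.0316, and not every line correlated best with its own number. At a level of 2 RPKM the targets counted were 2, 3 and 2 in the sg*Trp53* lines and 1 in sg*Kmt2c* replicate 1; with the longest transcript they were 2 in sg*Trp53* replicate 1 and 3 in sg*Trp53* replicate 2. The causes were not tested. Scaling moved the median log2 fold change of all genes between -0.12 and -0.01. Depth limits the low targets: 3 reads of *Axin2* are 0.414 to 0.774 RPKM.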
